A study of Mus musculus with 16 samples.

Results

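The 6 elongase genes Elovl1, Elovl2, Elovl3, Elovl4, Elovl5 and Elovl7 and the 3 desaturase genes Fads1, Fads2 and Fads3 were followed in short-read RNA-Seq of 8 mouse tissues under fed and fasting conditions. They are 9 of the 55385 genes of the count table and were chosen by gene family, by their symbols, and not by a measured value. Liver, kidney, heart, lung, spleen, muscle and both white and brown adipose were taken from male C57BL/6 mice without any engineered allele. The mice were bought at 12 weeks of age, kept for at least 10 to 14 days on standard chow, and then either fed freely or fasted for 24 h with 3 mice in each group. Tissue of the 3 mice was pooled before sequencing. A tissue therefore has a single fed and a single fasting library, which makes 16 libraries, and no value has a replicate error. The 8 tissues of a treatment come from the same pool of mice.

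Cells lengthen fatty acids in the endoplasmic reticulum, where an elongase of the Elovl family joins a fatty acyl-CoA to malonyl-CoA in the rate-limiting step of a cycle that other enzymes complete. Each elongase prefers certain chains, so the set that a tissue expresses shapes the fatty acids it can make. Fads1 and Fads2 place double bonds in the polyunsaturated fatty acids derived from linoleic and alpha-linolenic acid, and together with Elovl5 and Elovl2 they make arachidonic acid and docosahexaenoic acid. The liver is a main site of this synthesis and supplies other organs.

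Levels are given as CPM, the count of a gene scaled to a library total of 1e+06. The library totals lay between 14245178 and 36069968 counts, so that 3 counts correspond to 0.0832 to 0.211 CPM. A gene is called within a tissue at a log2 fold change of fasting over fed above 0.5 in size, with 0.01 CPM added to both values, and an unadjusted p under 0.01 in Fisher's exact test (two-sided). With 1 library per treatment that test compares those libraries and not the conditions. In these bulk libraries fewer cells of a type and less RNA per cell cannot be told apart. The tissues carried the markers of their labels, with hepatocyte genes summing to 79505 and 66332 CPM in the liver libraries and to at most 162 CPM in the libraries of the other 7 tissues. The white adipose fasting library stood apart. In it, 7 genes of multiciliated epithelium, a list written after the counts were seen, summed to 649.9 CPM, against 10.6 CPM in white adipose fed and 613 and 658 CPM in the lung libraries. Scaling by TMM factors raised the median log2 fold change of genes at 1 CPM or more by 0.12 in liver and lowered it by 0.11 in white adipose, and shifted no other tissue by more than 0.0767. The share of upward calls among all called genes moved from 31.9% to 49.5% in liver, from 69.4% to 58.2% in white adipose, from 41.3% to 55.0% in kidney, from 29.3% to 40.1% in lung and from 32.0% to 42.3% in muscle with that scaling.

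The RefSeq table of promoters (GRCm38.p6) held windows for 7 of the 9 genes, and the 3 windows below belong to elongases that rose on fasting. Elovl2 (chr13:41220404-41220653, minus strand) and Elovl5 (chr9:77917115-77917364, plus strand) rose in liver, and Elovl7 (chr13:108214154-108214403, plus strand) rose in white adipose. Each run is the 250 bases before the annotated start of the gene, 5′ to 3′, and capitals mark matches to the motifs searched on either strand.
Elovl2: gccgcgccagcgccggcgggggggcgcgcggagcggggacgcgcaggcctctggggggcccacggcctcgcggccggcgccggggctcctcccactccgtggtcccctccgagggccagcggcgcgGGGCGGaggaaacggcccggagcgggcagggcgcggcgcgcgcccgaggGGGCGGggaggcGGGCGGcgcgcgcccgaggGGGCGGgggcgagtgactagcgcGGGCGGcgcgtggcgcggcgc
Elovl5: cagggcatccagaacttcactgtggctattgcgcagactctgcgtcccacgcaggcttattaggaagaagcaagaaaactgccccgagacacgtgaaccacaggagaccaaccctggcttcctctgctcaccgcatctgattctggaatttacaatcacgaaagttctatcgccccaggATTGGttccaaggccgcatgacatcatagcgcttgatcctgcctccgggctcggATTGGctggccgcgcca
Elovl7: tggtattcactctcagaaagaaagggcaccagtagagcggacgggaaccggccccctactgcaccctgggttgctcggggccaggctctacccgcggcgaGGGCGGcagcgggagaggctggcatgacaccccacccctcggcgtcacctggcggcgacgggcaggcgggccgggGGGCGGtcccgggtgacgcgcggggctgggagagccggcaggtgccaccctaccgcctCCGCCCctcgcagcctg
The motifs were an SREBP element (TCACNCCAC, found in 1.05% of the 32851 promoters of the table), the NF-Y box (CCAAT, 33.8%), the Sp1 box (GGGCGG, 32.7%), and a direct repeat of AGGTCA with a spacer of 1 base (DR1, 0.0335%) or 4 bases (DR4, 0.0152%). The Elovl5 window held 2 NF-Y boxes and no Sp1 box. The windows of Elovl2 and Elovl7 held 5 and 3 Sp1 boxes and no NF-Y box. None of the 9 windows of the family, which include a second start for Elovl1 and Elovl2, held the SREBP element, DR1 or DR4 in these letters. The window of Fads2 held 1 Sp1 box, but 243 of its 250 bases lie inside the Fads2 gene as it was counted here, and it is not printed.

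The fed and the fasting library of a tissue were first taken as its 2 values to compare levels between tissues. All 8 genes that passed the edgeR filter on low counts differed between tissues (edgeR quasi-likelihood F test with Benjamini-Hochberg adjustment over all genes, adjusted p from 1.2e-09 for Elovl2 to 1.67e-06 for Fads2), but so did 96.8% of the 17296 genes tested. Elovl4, which makes the very longest chains in retina, skin and brain, did not pass that filter. It had 114 counts in all 16 libraries together and exceeded 1 CPM only in brown adipose fed, at 1.2 CPM.

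**Figure D1:**
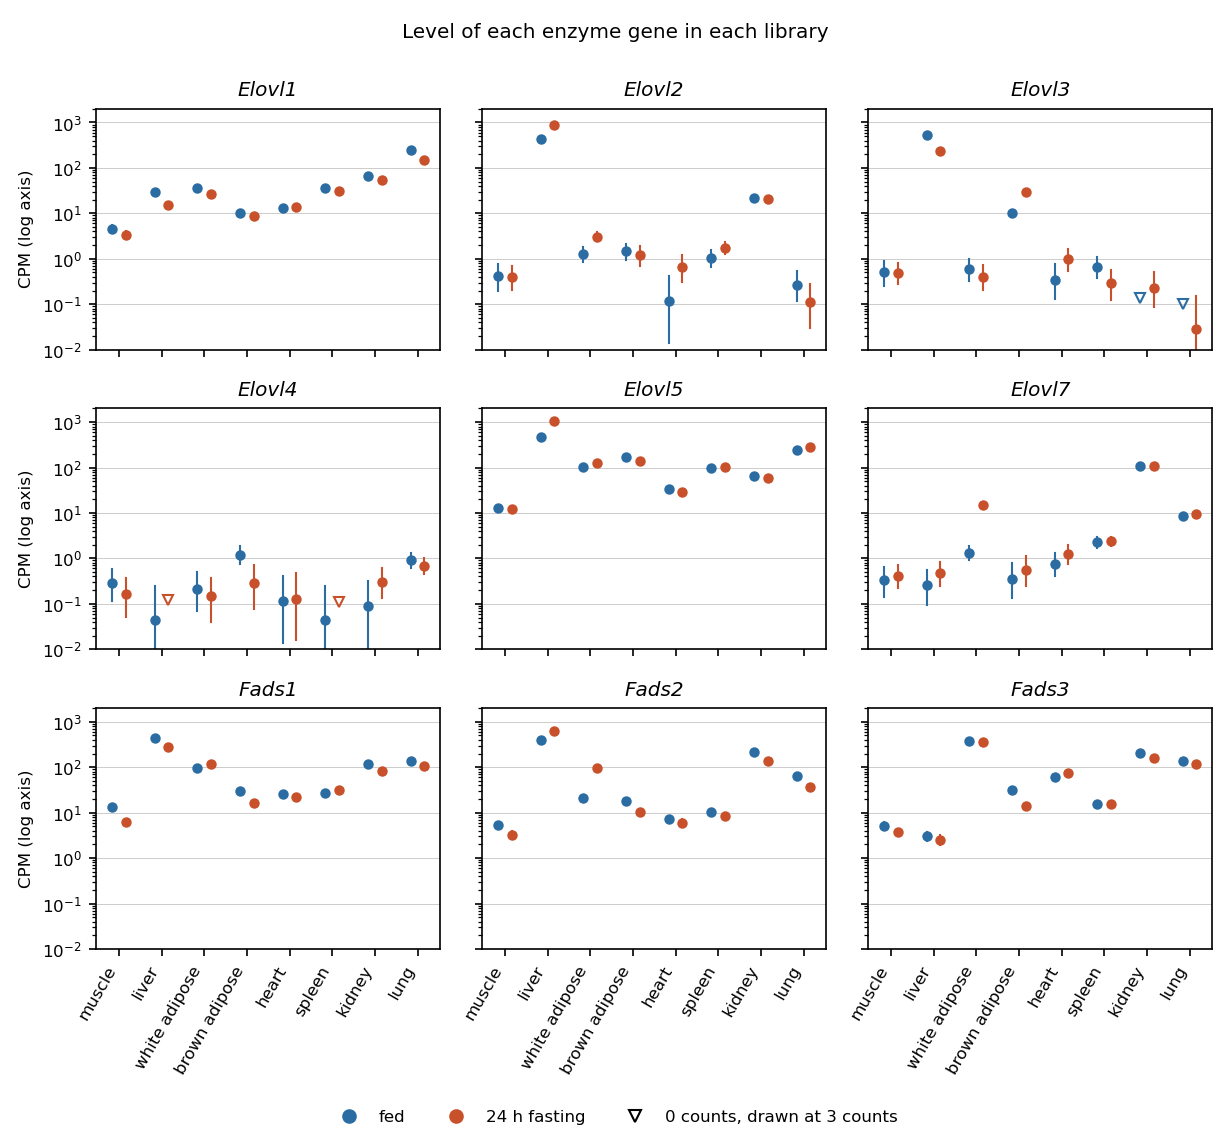
CPM of each gene on a log axis in each tissue, with fed libraries in blue, fasting libraries in orange, vertical lines for the 95% exact Poisson interval of the count, and open triangles at the level of 3 counts where a library had 0 counts. Elovl2 and Elovl3 stand highest in liver, Elovl7 in kidney, Elovl1 in lung and Fads3 in white adipose, and the fasting point of Elovl7 in white adipose lies above its fed point.

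Liver held the highest level of 5 of the 9 genes. Elovl2, which lengthens long polyunsaturated chains on the way to docosahexaenoic acid, had a mean of 648 CPM in liver, 30.96-fold above kidney, the next tissue, and reached at most 3.06 CPM in the remaining 6 tissues. Elovl3, an elongase of saturated and monounsaturated chains best known from brown adipose tissue and sebaceous glands, had a mean of 388 CPM in liver, 19.5-fold above brown adipose. Elovl5, which lengthens polyunsaturated chains one step before Elovl2, was above 10 CPM in every library and ran from 758 CPM in liver over 264 CPM in lung and 155 CPM in brown adipose down to 12.5 CPM in muscle. Its 2 values did not overlap between neighbours in that order, except between white adipose and spleen.

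The other elongases had other leading tissues. Elovl1, which makes the very long saturated chains of sphingolipids, was highest in lung with a mean of 198 CPM, 3.28-fold above kidney, and lowest in muscle with 3.97 CPM. Its ranges overlapped between spleen and white adipose and between white adipose and liver. Elovl7, an elongase of saturated acyl-CoAs, had a mean of 109 CPM in kidney, 11.9-fold above lung, and its 2 white adipose values of 1.33 and 15.3 CPM spanned the range of lung and spleen. In muscle, liver, brown adipose and heart its 8 values lay between 0.261 and 1.25 CPM.

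Among the desaturases, Fads1 and Fads2 were highest in liver, with means of 361 and 513 CPM, 2.99-fold and 2.92-fold above lung and kidney. Fads3, which acts on the sphingoid base of sphingolipids, had its highest mean, 364 CPM, in white adipose and its lowest, 2.78 CPM, in liver. For Fads1, lung overlapped white adipose, white adipose overlapped kidney, and heart overlapped brown adipose. For Fads2, white adipose overlapped lung and brown adipose overlapped spleen. The ranges of Fads3 did not overlap between neighbouring tissues except for brown adipose and spleen. The 3 genes lie within 1 stretch of chromosome 19 (GRCm38), with Fads3 at chr19:10041569-10060110 on the plus strand, Fads2 at chr19:10062765-10101746 on the minus strand and Fads1 at chr19:10182888-10196877 on the plus strand. Fads2 and Fads3 are 2654 bases apart, and their levels ran in opposite orders between liver and white adipose.

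Levels of different genes were compared per length, as CPM per kilobase of exon, within each library. Elovl5 made up the largest share of the 6 elongases in muscle, white adipose, brown adipose, heart and spleen in both libraries, from 57.7% in heart fasting to 83.2% in brown adipose fed. Elovl6 is not in that sum, and in brown adipose it stood at 162.2 and 119 CPM per kilobase, above Elovl5 at 48.7 and 39.4. Elovl7 led in kidney with 35.7% and 39.7%. In lung Elovl1 led in the fed library with 56.6% and Elovl5 in the fasting library with 59.5%. In liver the lead also changed, from Elovl3 with 51.7% when fed to Elovl5 with 46.5% when fasting. Fads3 made up 79.1% and 63.3% of the sum of the 3 Fads genes in white adipose and at most 0.368% in liver. Scd1, a stearoyl-CoA desaturase, is not in that sum and stood at 4740 and 4860 CPM per kilobase in white adipose.

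**Figure D2:**
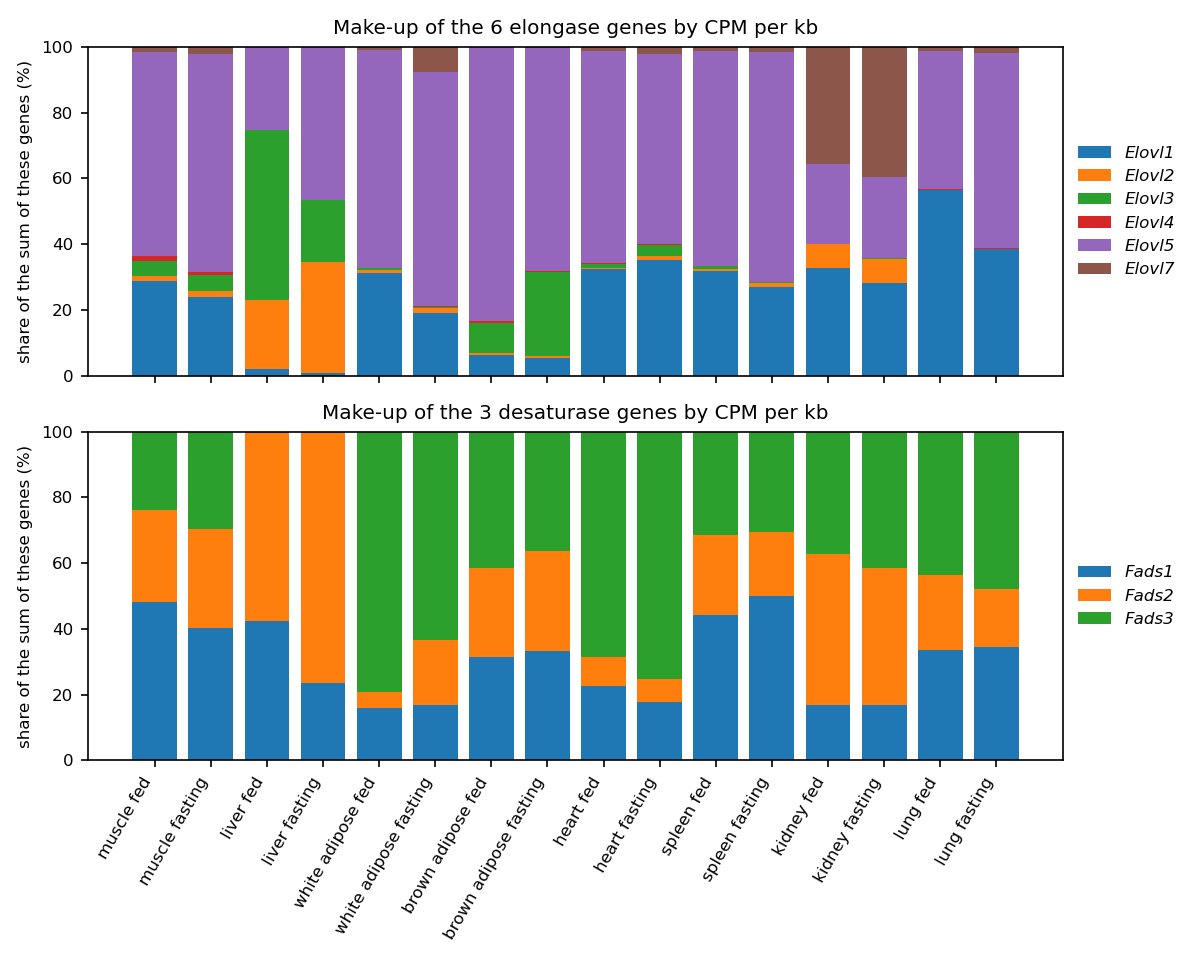
Share of each gene in the sum of the genes shown, in percent of summed CPM per kilobase, in each of the 16 libraries. The upper panel holds the 6 elongases without Elovl6, and the lower panel the 3 Fads desaturases without the Scd genes. The leading elongase differs between the fed and the fasting library of liver (Elovl3 51.7%, then Elovl5 46.5%) and of lung.

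As a description of likeness over the 16 libraries, the genes with the highest Pearson correlation of log2(CPM + 1) were taken among 16922 genes with a symbol and at least 5 CPM in 1 library. For Elovl2 they were Ftcd (r = 0.995) and Hpd (r = 0.991), both enzymes of amino acid breakdown, for Elovl3 Hapln4 (0.976) and Cpn2 (0.967), and for Elovl7 Cldn10 and Rhpn1 (0.987 each). Fads1 was closest to Gsta3 (0.977) and Nsmf (0.962), Fads2 to Evi5 (0.962) and Slc10a5 (0.960), and Fads3 to Triqk (0.964) and Rhoc (0.959). Elovl1 was closest to Pak4 (0.965) and Chst2 (0.953), Elovl5 to Gne (0.951) and Fam210b (0.938), and Elovl4 to Cyp1a1 (0.855) and Hpcal4 (0.847). These values share tissues, mice and library depth, and most of the variation in them lies between tissues.

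The question of the fasting response was then put to each tissue. Of the 72 values of 9 genes in 8 tissues, 7 were called up and 13 down. Over all genes and the 8 tissues, 4.99% of 220804 tests were called up and 6.15% down. Fads1 fell in 4 tissues and rose in none, Fads2 fell in 4 and rose in 2, and the remaining 10 calls were spread over Elovl1, Elovl2, Elovl3, Elovl4, Elovl5, Elovl7 and Fads3. A test that allows for spread between pools cuts these calls, since 6 of the 20 remained with the edgeR exact test when pools were taken to vary with a coefficient of variation of 0.2, and 1 of the 20, Elovl7 in white adipose, at 0.4. No call changed sign under the scalings tried.

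**Figure D3:**
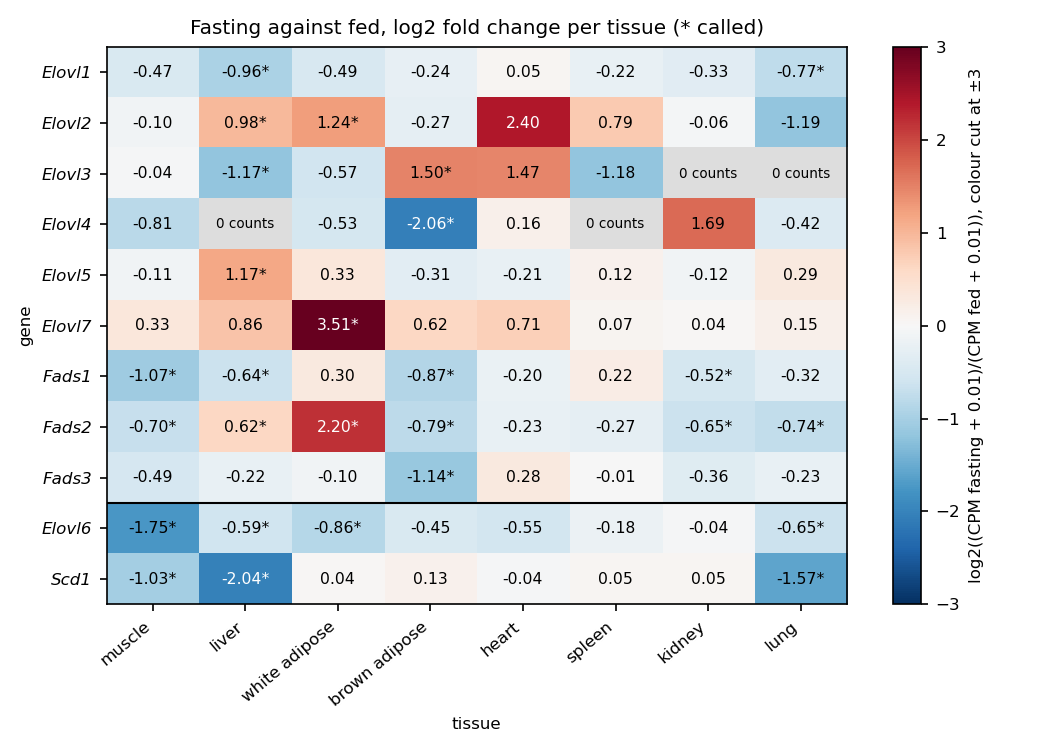
Log2 fold change of fasting over fed, with 0.01 CPM added to both values, for the 9 genes and, below the line, Elovl6 and Scd1, in each tissue; a star marks a call, grey cells have a library with 0 counts, and the colour scale ends at 3. The liver column holds 3 rises and 3 falls among the 9 genes, and heart and spleen hold no call.

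In liver, 3 genes rose and 3 fell. The background was 4.46% of 25048 genes called up and 9.52% called down. The genes that rose were Elovl5, Elovl2 and Fads2, enzymes of polyunsaturated fatty acid synthesis. Elovl5 went from 466 CPM fed to 1049 CPM fasting, a 2.25-fold rise (95% counting interval 2.199 to 2.300), and Elovl2 from 437 to 860 CPM, a 1.97-fold rise (1.92 to 2.02). Fads2, which catalyses the first desaturation of the route, went from 404 to 621 CPM, a 1.54-fold rise (1.498 to 1.577).

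The genes that fell in liver were Elovl3, Elovl1 and Fads1. Elovl3 went from 537 to 238 CPM, 2.26-fold lower when fasting, Elovl1 from 30.1 to 15.5 CPM, 1.94-fold lower, and Fads1, the desaturase that forms arachidonic acid, from 440 to 283 CPM, 1.56-fold lower. Fads1 and Fads2 therefore parted, and the ratio of Fads2 to Fads1 per length went from 1.34 fed to 3.21 fasting. The ratio of Elovl5 to Elovl2 per length was 1.20 and 1.37. Elovl4, Elovl7 and Fads3 stayed under 3 CPM in both liver libraries. Intervals cover counting error only. All 6 liver calls kept their direction and their call with TMM factors, DESeq2 size factors and a pseudocount of 1 CPM.

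The elongase and the desaturase of the fat-making route fell in the same liver libraries. Elovl6, which lengthens palmitate, went from 90.7 to 60.3 CPM and Scd1, which makes oleate from stearate, from 8682 to 2113 CPM. The call of Elovl6 in liver was lost with TMM factors and with DESeq2 size factors (log2 fold change -0.46 with each, against -0.59 with library totals). Hepatocyte marker genes went from 79505 to 66332 CPM and pancreatic acinar markers from 82.6 to 167 CPM. Adipocyte markers went from 21.4 to 123 CPM through Cidec, a lipid droplet gene, at 5.17 and 102 CPM, while Adipoq was at 3.56 and 4.09 CPM, Plin1 at 2.34 and 3.01 CPM, Cfd at 9.72 and 13.2 CPM and Lep at 0.564 and 0.641 CPM. The part of these differences in the results was not tested.

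Against the mean response of the other 7 tissues, the liver response was tested as 1 interaction term in edgeR. None of the 8 genes tested passed an adjusted p of 0.05, where 0.295% of 17296 genes did, and 2 of them, Elovl5 and Elovl3, had an unadjusted p under 0.05, as did 9.93% of all genes. Elovl5 responded by 1.26 more on the log2 scale in liver (SE 0.25, edgeR adjusted p = 0.0961) and passed with DESeq2 (adjusted p = 1.33e-03), which called 1 gene of the family. The difference for Elovl3 was -1.81 (SE 0.68, adjusted p = 0.416) and -1.18 with brown adipose left out.

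In white adipose, 3 genes were called up and none down, against 13.2% of 29956 genes called up and 5.84% called down. Elovl7 went from 1.33 CPM fed (31 counts) to 15.3 CPM fasting (419 counts), an 11.5-fold rise with a counting interval of 7.96 to 17.1. Fads2 went from 20.9 to 95.7 CPM, a 4.59-fold rise (4.16 to 5.06), and its ratio to Fads1 per length from 0.317 to 1.18. Elovl2 went from 1.29 CPM (30 counts) to 3.06 CPM (84 counts), a 2.38-fold rise (1.55 to 3.74).

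The remaining white adipose values moved less. Elovl5 was at 101 and 127 CPM and Fads1 at 96.1 and 119 CPM, both higher in the fasting library by less than the size needed for a call. Elovl1 was at 36.8 CPM fed and 26.3 CPM fasting and was called down with TMM factors, where its log2 fold change was -0.59, but not with library totals (-0.49). Fads3, the leading Fads gene of this tissue, was at 377 and 352 CPM.

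Elovl7 and Fads2 were the 2 genes of the family whose response in white adipose differed from that of the other 7 tissues. The background was 3.82% of 17296 genes. The difference was 3.14 on the log2 scale for Elovl7 (SE 0.31, edgeR adjusted p = 2.79e-04) and 2.42 for Fads2 (SE 0.47, edgeR adjusted p = 0.0161). Both were called in each of 10 alternative fits, with adjusted p up to 3.31e-03 for Elovl7 and up to 0.0323 for Fads2. The test takes the spread of the response among the other tissues as its error, and the white adipose response itself rests on 2 libraries.

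**Figure D4:**
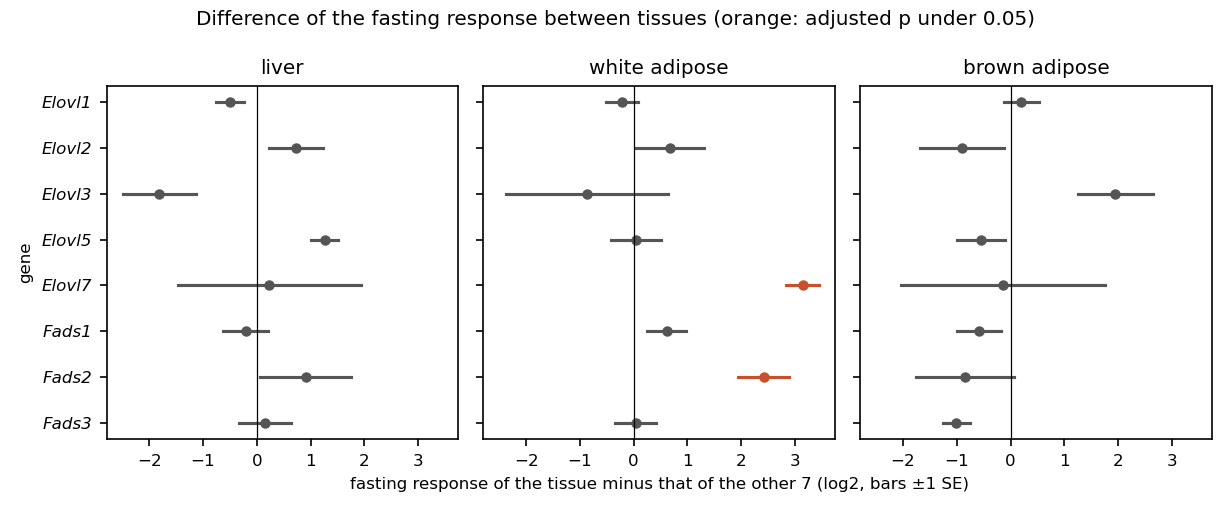
Fasting response of liver, white adipose and brown adipose minus that of the other 7 tissues for the 8 genes tested, on the log2 scale with bars of 1 SE from edgeR; orange marks an adjusted p under 0.05. Elovl7 (3.14) and Fads2 (2.42) in white adipose are the orange points.

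The white adipose rises came with genes of another cell type. The 7 multiciliated epithelium genes were each higher in the fasting library, with Foxj1, the regulator of motile cilia, at 1.76 and 126 CPM and Dnah5, a dynein of the cilium, at 3.26 and 195 CPM. Of 5 general epithelial genes, also listed after the counts were seen, Epcam was at 1.16 and 59.7 CPM and Krt8 at 8.54 and 106 CPM, and the 5 summed to 15.4 and 275 CPM. The mammary list went from 13.3 to 173 CPM through Krt8 and Krt18, while its milk protein genes Csn2, Csn3 and Wap had 0 counts in both libraries. Epididymis markers summed to 6.10 and 0.474 CPM, kidney tubule markers to 33.0 and 38.8 CPM, lung epithelium markers to 1.76 and 3.72 CPM, hepatocyte markers to 90.2 and 87.2 CPM, and adipocyte markers to 16006 and 13168 CPM. The 5 general epithelial genes summed to 383 and 429.8 CPM in kidney, 627 and 623 CPM in lung and 464 and 401 CPM in liver, where Elovl7 was at 108 and 110, 8.65 and 9.62, and 0.261 and 0.481 CPM. In liver that sum was mostly Krt8 (185 and 149 CPM), Krt18 (179 and 205 CPM) and Cdh1 (99.1 and 44.8 CPM). Epcam was there at 0.521 and 1.20 CPM and Cldn7 at 0.434 and 0.120 CPM. The part of these cells in the rises of Elovl7, Fads2 and Elovl2 was not tested.

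**Figure D5:**
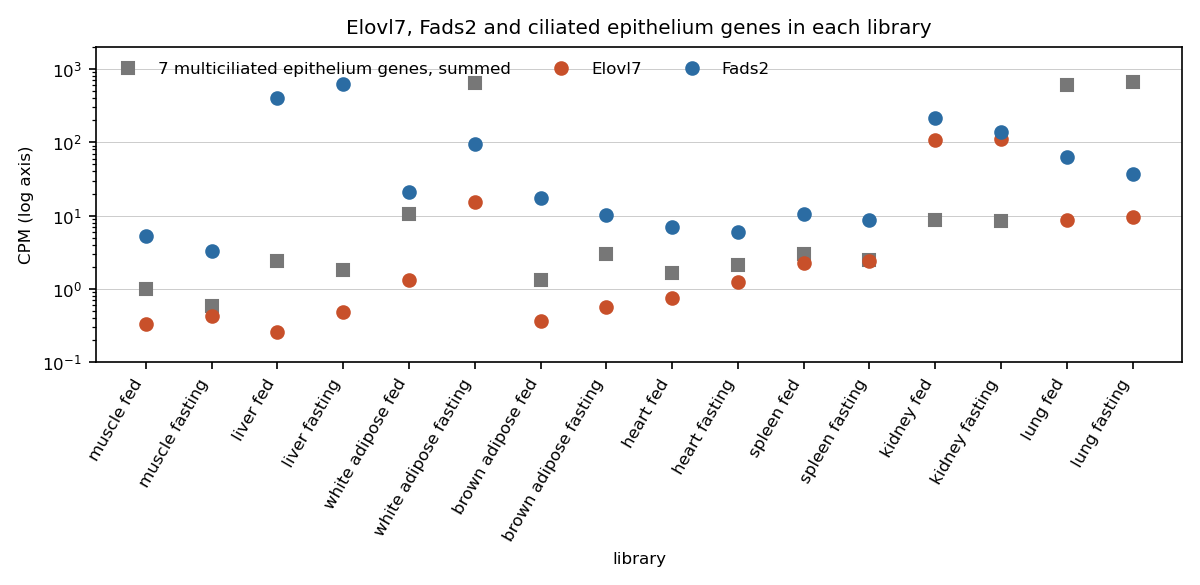
CPM on a log axis of Elovl7 (orange), Fads2 (blue) and the sum of 7 multiciliated epithelium genes (grey squares) in each of the 16 libraries. The grey square of white adipose fasting (649.9 CPM) lies near those of lung (613 and 658 CPM) and far above that of white adipose fed (10.6 CPM).

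In brown adipose, 1 gene rose and 4 fell, against 5.39% of 25808 genes called up and 7.58% called down. Elovl3 went from 10.4 to 29.4 CPM, a 2.82-fold rise (2.36 to 3.39), opposite in direction to liver. All 3 Fads genes fell. Fads3 went from 31.0 to 14.1 CPM, 2.198-fold lower when fasting, Fads1 from 29.9 to 16.4 CPM, 1.83-fold lower, and Fads2 from 17.6 to 10.2 CPM, 1.73-fold lower.

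The fourth fall in brown adipose was Elovl4, which went from 20 counts to 4 counts and was not called at an adjusted p under 0.01. Elovl5 was at 172 and 139 CPM and Elovl1 at 10.2 and 8.63 CPM, neither of them called. None of the 8 genes tested responded differently in brown adipose from the other tissues at an adjusted p of 0.05 in edgeR, where 0.00578% of 17296 genes, a single gene, did. DESeq2 called none of them either, and 2 had an unadjusted edgeR p under 0.05 (5.98% of all genes did), Elovl3 with a difference of 1.95 (SE 0.70) and Fads3 with -1.01 (SE 0.26). Skeletal muscle markers went from 2220 to 1039 CPM and fibroblast markers from 1199 to 735 CPM in the brown adipose libraries, while brown adipocyte markers were at 5141 and 4581 CPM and epidermis and sebaceous gland markers at 12.2 and 14.5 CPM. Their part in the brown adipose values was not tested.

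Muscle, kidney and lung held falls alone. In muscle 0 genes rose (background 4.42% of 25604 genes) and 2 fell (9.39%). Fads1 went from 13.4 to 6.37 CPM, 2.10-fold lower when fasting, and Fads2 from 5.32 to 3.26 CPM, 1.63-fold lower. Fads3 was at 5.19 and 3.68 CPM, Elovl1 at 4.61 and 3.33 CPM and Elovl5 at 12.92 and 11.99 CPM, all without a call. Elovl2, Elovl3, Elovl4 and Elovl7 stayed under 0.5 CPM in both muscle libraries. Adipocyte markers went from 99.1 to 49.3 CPM (Plin1 from 11.46 to 3.33 CPM, Adipoq from 16.1 to 6.79 CPM), fibroblast markers from 1758 to 1240 CPM and skeletal muscle markers from 131232 to 130181 CPM, and their part in the muscle values was not tested.

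In kidney 0 genes rose (2.77% of 27888 genes) and 2 fell (3.93%). Fads2 went from 215 to 137 CPM, 1.57-fold lower when fasting, and Fads1 from 117 to 81.2 CPM, 1.44-fold lower. The call of Fads1 was lost with TMM factors (log2 fold change -0.45) and with DESeq2 size factors (-0.46). Fads3 was at 202 and 157 CPM, Elovl1 at 67.1 and 53.4 CPM, Elovl5 at 64.5 and 59.55 CPM, and Elovl2 at 21.4 and 20.5 CPM. Elovl7, the leading elongase of kidney, was at 108 and 110 CPM with a ratio of 1.03 and a counting interval of 0.971 to 1.08. Elovl3 had 0 counts in kidney fed, where the 95% counting interval reaches 0.164 CPM, and 6 counts in kidney fasting. Kidney tubule markers summed to 29170 and 26834 CPM, with Slc34a1 of the proximal tubule at 5066 and 3266 CPM and Aqp2 of the collecting duct at 147 and 80.9 CPM, but Umod at 4055 and 4634 CPM and Slc12a1 at 1958 and 2623 CPM, both of the thick ascending limb. Fibroblast markers went from 268 to 199 CPM and pancreatic acinar markers from 58.3 to 23.0 CPM, the latter through Cela1. The part of these differences in the kidney values was not tested.

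In lung 0 genes rose (2.68% of 31101 genes) and 2 fell (6.49%). Elovl1, which is highest in this tissue, went from 249 to 146 CPM, 1.71-fold lower when fasting. Fads2 went from 62.6 to 37.5 CPM, 1.67-fold lower. Fads1 was at 134 and 107 CPM, Fads3 at 138 and 117 CPM and Elovl5 at 238 and 291 CPM, with no call. Cardiomyocyte markers went from 904 to 447 CPM, B cell markers from 157 to 78.0 CPM, T cell markers from 25.3 to 9.43 CPM, fibroblast markers from 1511 to 1051 CPM and adipocyte markers from 86.8 to 130.1 CPM in lung, lung epithelium markers were at 22697 and 22842 CPM, and the part of these differences was not tested.

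Neither heart nor spleen held a call by Fisher's exact test, where the background was 4.33% of 26026 genes up and 5.80% down in heart, and 2.31% of 29373 genes up and 1.62% down in spleen. Without the size limit, Fads3 in heart, at 61.1 and 74.3 CPM, had the lowest p of the family in these 2 tissues (4.94e-06 for the 2 libraries, adjusted p = 4.66e-05 over all genes). In heart, Fads1 was at 25.6 and 22.2 CPM, Fads2 at 7.09 and 6.03 CPM, Elovl5 at 33.2 and 28.6 CPM and Elovl1 at 13.0 and 13.5 CPM. In spleen, Elovl5 was at 97.0 and 105 CPM and Fads1 at 27.5 and 32.1 CPM, both slightly higher in the fasting library, and Fads2 was at 10.4 and 8.62 CPM, Fads3 at 15.5 and 15.4 CPM, Elovl1 at 36.7 and 31.5 CPM and Elovl7 at 2.25 and 2.37 CPM. Pancreatic acinar markers went from 370 to 11.5 CPM and red cell markers from 2655 to 6497 CPM in spleen, and their part in the spleen values was not tested. Elovl2 in heart rested on 2 and 10 counts. Over the genes of the family at 1 CPM or more, the median log2 fold change ran from -0.55 in brown adipose (8 genes) over -0.49 in muscle (5 genes), -0.33 in kidney (7 genes), -0.28 in lung (6 genes), -0.22 in liver (7 genes), -0.07 in heart (6 genes) and 0.07 in spleen (7 genes) to 0.33 in white adipose (7 genes). The median of all genes at that level was -0.03 in brown adipose, -0.14 in muscle, -0.06 in kidney, -0.09 in lung, -0.13 in liver, -0.07 in heart, -0.02 in spleen and 0.07 in white adipose. The order of the family medians depends on the 1 CPM limit. Elovl4 passed it in brown adipose through the fed library alone (20 and 4 counts), and without it the middle value is -0.31 (Elovl5). Elovl7 passed it in heart through the fasting library alone (13 and 19 counts), and without it the middle value is -0.20 (Fads1).

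For a response shared by the tissues, edgeR was fitted to the 16 libraries together with tissue as a block. Every pair comes from the same fed pool and the same fasting pool. The across-tissue p-values therefore measure agreement between tissues and not between animals. None of the 8 genes tested passed an adjusted p of 0.05, where 4.39% of 17296 genes did, and 3 of them, Elovl1, Elovl2 and Fads1, had an unadjusted p under 0.05, as did 23.8% of all genes. The log2 fold change was -0.40 for Elovl1 (SE 0.10, edgeR adjusted p = 0.0527), -0.34 for Fads1 (SE 0.14, adjusted p = 0.172) and 0.56 for Elovl2 (SE 0.24, adjusted p = 0.183). DESeq2 called 1 gene, Elovl1 (adjusted p = 0.0106), which was lower in 7 of 8 tissues. Elovl7 had a log2 fold change of 0.78 (SE 0.37, edgeR adjusted p = 0.235) that was 0.27 without the white adipose libraries, and Fads2 one of -0.03 (SE 0.30) that was -0.32 without them.

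The same tissues were read for genes that work beside this family, in lists chosen with earlier results of these data known. Among the 5 genes of the list with Elovl6 and the stearoyl-CoA desaturases, Scd2 fell in 6 tissues, with values of 572 and 40.7 CPM in brown adipose, and Elovl6 fell in 4 tissues, 3 of them with TMM or DESeq2 size factors. Scd1 fell in 3 tissues, while Scd3 rose in 2 tissues, from 4.39 to 81.8 CPM in brown adipose, and Scd4 in 3 tissues, from 14.6 to 53.9 CPM in heart. In brown adipose the list thus held 2 rises (5.39% of all genes rose there) and 1 fall (7.58%). Its median log2 fold change there was 0.13, against -0.03 for all genes at 1 CPM or more. Scd genes are close in sequence, so reads may be split between them. The across-tissue log2 fold change was -1.14 for Scd2 (SE 0.34, edgeR adjusted p = 0.0834) and -0.55 for Elovl6 (SE 0.15, adjusted p = 0.0631), and 0 of the 4 genes tested were called. Of the 3 genes of electron supply to desaturases, Cyb5b, a cytochrome b5 of the outer mitochondrial membrane, fell in 4 tissues and went from 768 to 184 CPM in liver (across tissues -0.78, SE 0.20, edgeR adjusted p = 0.0578). Cyb5a was called in no tissue and was at 697 and 757 CPM in liver (across tissues 0.02). Cyb5r3 fell in liver alone, from 370 to 155 CPM, and 0 of 3 were called across tissues. The partners of the elongation cycle, which carry out the reduction and dehydration steps, had 0 of 6 tested genes called across tissues with a median log2 fold change of -0.09, and no gene called the same way in 4 or more tissues, as was also the case for the lists of ceramide synthases (0 of 4, median -0.06) and of acyl-CoA activation and phospholipid incorporation (0 of 6, median -0.01). The median over all 17296 genes was -0.01.

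Abcd2, a peroxisomal transporter of very long chain acyl-CoAs, fell in 4 tissues, from 1025 to 448 CPM in white adipose. It did not pass across tissues (edgeR adjusted p = 0.114). Other genes of its list of 6 peroxisomal genes went the other way. Hsd17b4 rose in 2 tissues and Scp2 and Abcd3 in 1 each, and none of these 3 fell in any. Across tissues 0 of the 6 were called down, with a median log2 fold change of 0.15 against -0.01 over all genes. Of the 9 regulators, 3 were called down across tissues (Srebf1, Srebf2 and Mlxipl) and none up, where 4.39% of all genes were called in either direction, and the median log2 fold change of the list was 0.04. Srebf2, the factor of sterol synthesis, had an across-tissue log2 fold change of -0.54 (edgeR adjusted p = 8.71e-03). Srebf1, the transcription factor of fatty acid synthesis that responds to insulin, fell in 5 tissues, from 342 to 33.5 CPM in liver and from 432 to 161 CPM in white adipose (across tissues -1.29, SE 0.30, adjusted p = 0.0423). Mlxipl, which encodes the carbohydrate-responsive factor ChREBP, fell in 4 tissues (-0.57, SE 0.14, adjusted p = 0.0495), and Insig1, which holds SREBP proteins in the endoplasmic reticulum, in 7 tissues (-0.90, SE 0.28, adjusted p = 0.0873). In liver the regulators held 4 falls (9.52% of all genes fell there) and 2 rises (4.46%), the rises being Insig2 from 272 to 587 CPM and Ppara, the fatty acid sensing nuclear receptor of the fasted liver, from 145 to 275 CPM.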

How the data were processed

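The authors sequenced strand-specific paired-end libraries of 100 bases from pooled tissue, and, per the labels and methods, used fastp 0.23.2 for trimming, FastQC 0.11.8 for quality, HISAT2 2.2.1.0 for alignment against GRCm38, and featureCounts (Subread 2.0) for counting on the GENCODE annotation. They deposited raw counts per gene and library and the exon length of each gene (an other value). Whether reads or pairs were counted, and the strand setting, is not given in the sources used here. Exons of Elovl1 and Elovl3 overlap Cdc20 and Pitx3 on the opposite strand, whose counts were 1 to 268 and 0 to 59 per library. Mitochondrial genes hold 0 counts.

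CPM used library totals. Fisher's exact test ran on every gene with a count in a tissue. edgeR 4.0.16 (R 4.3.3; TMM, filterByExpr, quasi-likelihood) fitted tissue and treatment to 16 libraries with 7 residual degrees of freedom, or 1 interaction term more. DESeq2 1.42.0 was an alternative. Fisher's test and the descriptions ran in scipy 1.17.1, pandas 2.3.3 and numpy 2.4.6 under Python 3.11.15. The statistical steps were run on simulated data. The simulation for Fisher's exact test held counting error alone, so it cannot show false calls from spread between pools. Symbols were matched for 55144 genes.

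The members, the lists and the tests were chosen with earlier results of these data known. Named genes are the 9 members, the 2 genes most alike to each, list genes called one way in at least 4 tissues (at most 3 a list), Elovl6 and Scd1. A gene that this rule also names is not reported here. Other genes were named after their values were seen. The alternatives were a pseudocount of 1 CPM, TMM or DESeq2 size factors, an adjusted p under 0.01, library sizes that leave out the 10 highest genes, at least 1 CPM in 1 library, a log2 fold change above 1, edgeR's exact test with an assumed variation, and, for the fits, total counts alone, no filter, robust dispersion, no tissue block, DESeq2 and tissues left out.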

Additional observations from a re-analysis of the deposited data

Results flagged for a closer look

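The fasting response of white adipose differed from that of the other 7 tissues by an interaction test for 2 genes of the family, Elovl7 with a difference of 3.14 on the log2 scale (edgeR adjusted p = 2.79e-04) and Fads2 with 2.42 (edgeR adjusted p = 0.0161). Elovl7 was at 1.33 CPM fed and 15.3 CPM fasting there, and in the other 7 tissues its fasting value was higher than the fed value by at most 0.86 on the log2 scale. Fads2 was at 20.9 and 95.7 CPM in white adipose, rose in liver and fell in 4 tissues. The same fasting library carried 649.9 CPM of multiciliated epithelium genes against 10.6 CPM in the fed library, and the part of those cells in both differences was not tested.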

How the results depend on the processing

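No analysis paired by replicate number was possible because each group has 1 library, and the fits across tissues pair the fed and the fasting library of a tissue through the tissue block. The 20 calls of a gene in a tissue kept their direction under the 9 alternatives, and all 20 were made with a pseudocount of 1 CPM, with library sizes without the 10 highest genes and with a filter at 1 CPM. With TMM factors or DESeq2 size factors 19 remained and the count of kidney went from 2 to 1, while white adipose went from 3 to 4 by a fall of Elovl1, as it also did with library sizes without the 10 highest genes. With an adjusted p under 0.01, 19 remained. At a log2 fold change above 1, 9 remained, and the members called were 1 in muscle, 2 in liver, 3 in brown adipose, 0 in kidney and 0 in lung. With the edgeR exact test at an assumed coefficient of variation of 0.2 they were 0 in muscle, 2 in liver, 2 in brown adipose, 0 in kidney and 0 in lung, and at 0.4 they were 0 in muscle, liver, brown adipose, kidney and lung and 1 in white adipose. The last 2 alternatives assume a spread between pools that these data cannot give.

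Across tissues, total counts alone and DESeq2 each called 1 gene in place of 0, Elovl1 both times (adjusted p = 0.0416 and 0.0106), and the exact sign-flip permutation test over 8 tissues had 2 genes under an unadjusted p of 0.05, Elovl1 (p = 0.0156) and Elovl7 (p = 0.00781, the smallest it can give). That smallest p needs the same sign in all 8 tissues, and Elovl7 was called in white adipose alone. In muscle, liver, brown adipose and heart it rested on at most 19 counts in a library. With any single tissue left out of the edgeR fit, 0 to 0 genes were called. The liver interaction called 1 gene with DESeq2, Elovl5. Leaving out 1 of the other tissues gave 0 to 0 genes for liver and brown adipose and 2 to 2 for white adipose. All counts of genes that differ between tissues stayed at 8, except 9 without the filter. Calls within a tissue cover counting error only, and Elovl4, and Elovl3 outside liver and brown adipose, rest on at most 28 counts in a library.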
